A study of Mus musculus with 4 samples.

Results

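Solute carriers are the membrane proteins that move sugars, amino acids, metals, nucleosides and ions across cell membranes. Most genes of this superfamily carry symbols that start with Slc and a family number. Their transcripts were examined in granulocyte-monocyte progenitors, bone marrow cells committed to the neutrophil and monocyte lineages. The members were all genes whose mouse symbol has that form and for which at least 1 of 4 libraries listed an unannotated transcript, that is, a transcript outside the reference annotation. This gave 111 of 5059 annotated genes and 168 of 8219 transcripts. Of the 111 genes, 108 encode carriers or close members of carrier families, and 3 (Slc4a1ap, Slc7a6os and Slc9a3r2) are only named after a carrier.

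The groups were MST1-deficient mice and wild-type mice, with 2 libraries each and cells pooled from 10 mice per library. MST1 was taken to be the kinase of the Hippo pathway encoded by Stk4, since the labels give no gene symbol, allele, promoter, strain, age or sex. Sorted cells of both groups were placed in medium with serum and received no drug, and RNA was enriched on oligo-dT beads. All values below describe unannotated transcripts alone, summed per gene. Their annotated transcripts were not analysed here.

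A solute carrier usually moves its cargo down a gradient, in exchange for another solute, or together with an ion whose gradient supplies the energy. Carriers of the plasma membrane set what enters a cell, those of lysosomes and the Golgi move amino acids, metals and sugar donors between compartments, and the mitochondrial carriers link the matrix to the cytosol. Myeloid progenitors divide fast and depend on imported amino acids, nucleosides and iron, and loss of the glucose-6-phosphate carrier encoded by SLC37A4 causes neutropenia in humans.

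The targeted gene could not serve as a check of the labels, because no unannotated transcript of Stk4 or of its relative Stk3 was listed in any library. Listed transcripts summed to between 928977 and 1079382 estimated counts per library. Of 15 markers of granulocyte-monocyte progenitors, 12 were not listed, among them Mpo, Elane and Cebpa, so these files cannot show the labelled cell type. Gfi1 had 19.96 and 46.7 FPKM (fragments scaled to transcript length and library size) in MST1-deficient libraries and 16.55 and 29 FPKM in wild-type libraries. Genes of the Y chromosome differed: Ddx3y had 10.18 and 5.6 FPKM in MST1-deficient libraries and 1.91 and 0 FPKM in wild-type libraries, and Kdm5d had 2.59 and 3.19 FPKM (MST1-deficient) against 0.02 and 0 FPKM (wild type). Sex and genotype of the pools therefore cannot be told apart.

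Solute carrier transcripts formed a small share of the listed counts in each library. The base was the estimated counts of unannotated transcripts at annotated genes, not the whole library. Of these counts they held 1.27% and 1.16% in MST1-deficient libraries and 1.37% and 1.30% in wild-type libraries. Their summed level was 389.1 and 345.5 FPKM in MST1-deficient libraries and 423.6 and 398.7 FPKM in wild-type libraries. Both MST1-deficient sums were lower than both wild-type sums, but this did not hold once Slc43a1 was left out. The sums were then 389.1 and 345.5 FPKM in MST1-deficient libraries and 419.6 and 388.7 FPKM in wild-type libraries, which overlap. Slc29a1 differed by more FPKM than Slc43a1, with 29.94 and 33.63 FPKM (MST1-deficient) against 47.49 and 49.95 FPKM (wild type). Sums without Slc29a1 were not examined. An exact permutation test of 2 libraries against 2 has 3 splits and cannot go below 0.33. In these bulk samples, fewer cells of a type and less RNA per cell cannot be told apart.

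Levels differed widely among members. The purine and pyrimidine nucleoside transporter Slc29a1 and the Golgi carrier Slc35b2 had the highest mean levels over the 4 libraries, at 40.25 and 37.15 FPKM, and their ranges overlapped. Next came the mitochondrial iron carrier Slc25a28 at 15.88 FPKM, the peptide transporter Slc15a2 at 13.25 FPKM and a second mitochondrial iron carrier, Slc25a37, at 12.64 FPKM. The lowest library of Slc35b2 (31.83 FPKM) stood above the highest of Slc15a2 (19.03 FPKM), whereas the ranges of the next members overlapped. Over all 111 members the median of the mean level was 1.41 FPKM, and 62 had a mean of at least 1 FPKM. All 4 libraries listed 76 members (68.5%, against 72.8% of all annotated genes), and 16 members were listed in 1 library.

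**Figure D1:**
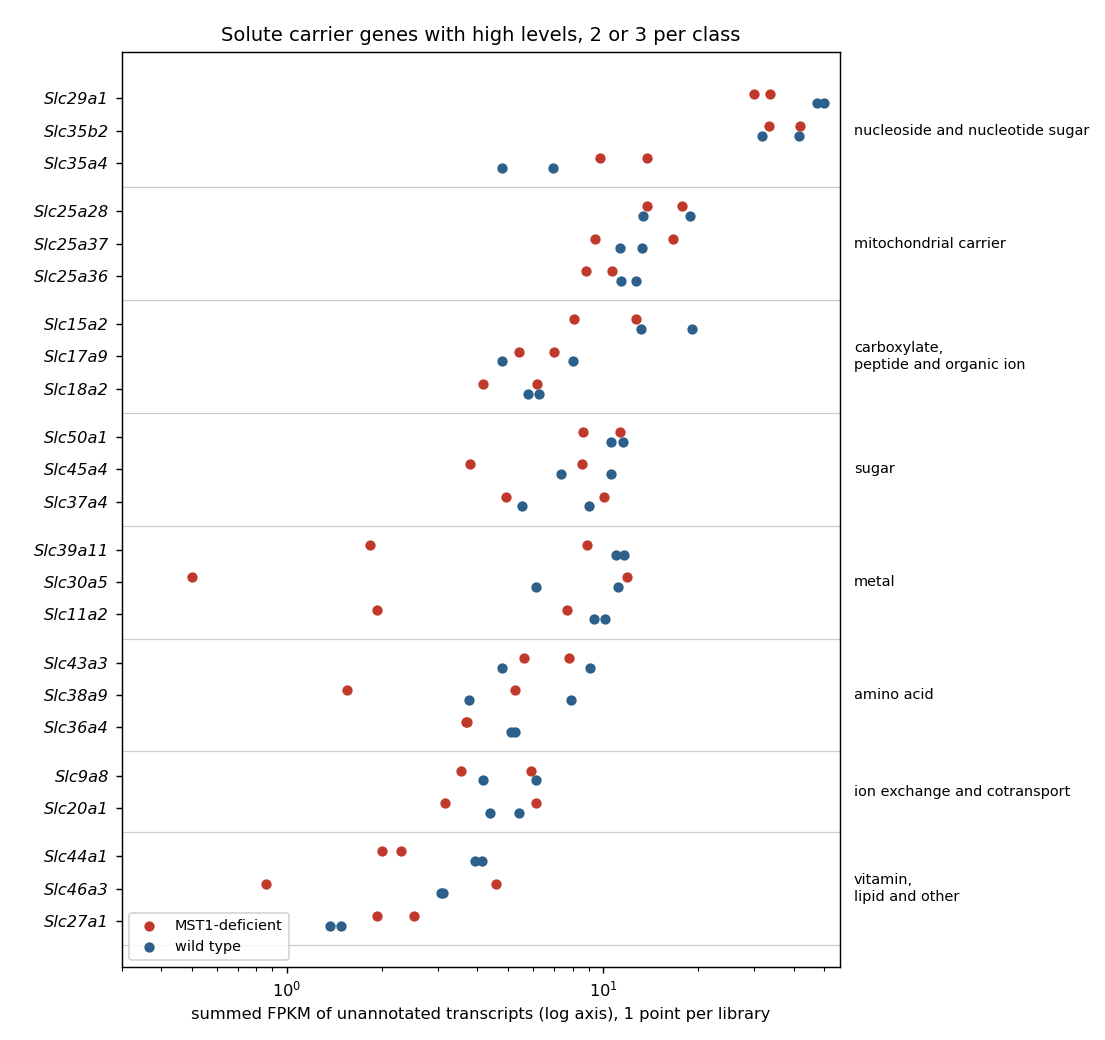
Summed FPKM of unannotated transcripts (log axis) for 2 or 3 of the members with the highest means in each transporter class, with 1 point per library, MST1-deficient in red above wild type in blue. Slc29a1 and Slc35b2 stand apart from the other members shown, and MST1-deficient replicate 1 holds the low points of Slc39a11, Slc30a5 and Slc11a2.

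The question of the design is which transcripts differ with loss of MST1. Expression was tested for the 64 members with at least 1 FPKM in at least 2 libraries, in an edgeR quasi-likelihood fit over all 3221 genes that met this filter. No member passed the threshold of an adjusted p of 0.05, and neither did any other gene (background 0.0%). The lowest adjusted p of edgeR was 0.351 among members and 0.112 among all genes. At an unadjusted p under 0.05 stood 8 members, 4 higher (background 3.01%) and 4 lower (background 2.64%), which is 12.5% of the members tested against a background of 5.65%. Leaving out wild-type replicate 1 gave 4 such genes, and leaving out wild-type replicate 2 gave 3. DESeq2, run on the same counts, called 2 members, Slc43a1 and Slc30a10, both lower in MST1-deficient libraries (background 1.43%), and limma on log2(FPKM + 0.5) called 0 (background 0.155%). Both genes reached 1 FPKM in wild-type libraries alone, so the filter on low values fixed the direction of these calls. Slc38a1 reached it in MST1-deficient libraries alone, and all 3 are among the 8 members at an unadjusted p under 0.05. These p-values measure the spread between pools of mice.

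Differences ran in both directions. Both MST1-deficient libraries stood above both wild-type libraries for 14 of the 64 members (background 14.0%) and below both for 13 (background 18.8%). Slc38a1 among the 14, and Slc43a1 and Slc30a10 among the 13, met the filter through 1 group alone, which fixed their side. The median log2 fold change was 0.03 over the members tested and 0.01 over all genes tested, with 33 members above 0 and 31 below (background 48.9%). With each library left out, the median of the members lay between -0.12 and 0.05. Single libraries were compared pair by pair over the 60 members tested that were above 0 in every library. The median absolute log2 ratio of FPKM was between 0.49 and 0.71 over the 4 pairs of different genotype, 0.72 between the MST1-deficient replicates and 0.47 between the wild-type replicates. Of these 60 members, 35 spanned at least 2-fold from their lowest to their highest library.

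**Figure D2:**
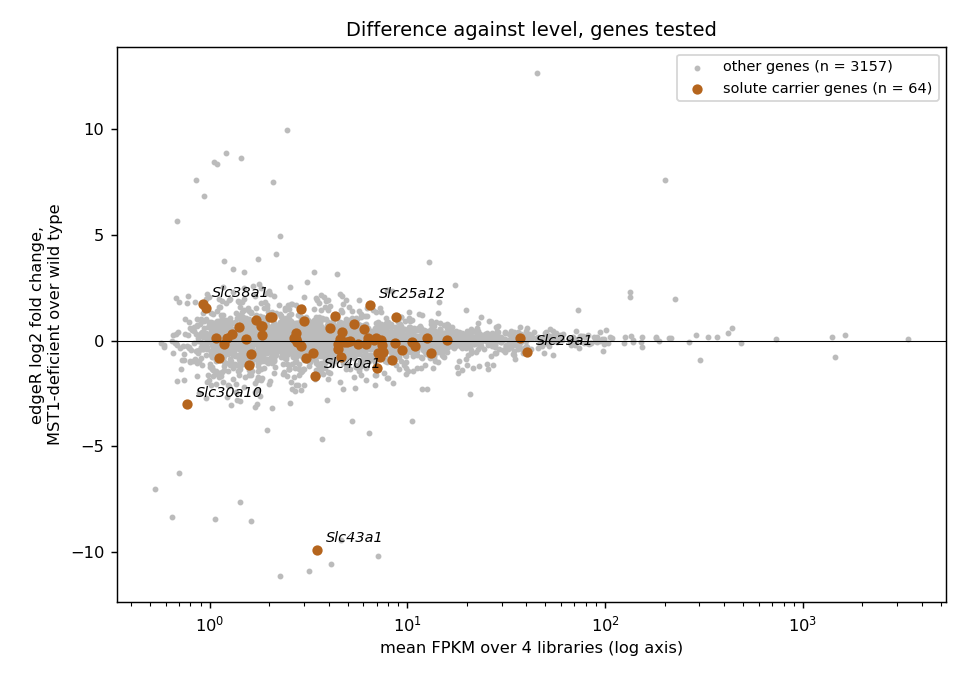
edgeR log2 fold change of MST1-deficient over wild type against the mean FPKM over 4 libraries (log axis), with 64 solute carrier genes in orange among 3157 other genes tested in grey. The median of the members is 0.03, and Slc43a1, at 0 in both MST1-deficient libraries, has a fitted value that depends on the prior count.

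The amino acid carriers comprised 14 genes by family number, of which 9 were tested. They include uptake carriers of the plasma membrane and lysosomal carriers that report amino acid supply to the growth kinase complex mTORC1. Their median log2 fold change was 0.10, and between -0.42 and 0.60 with each library left out, with 2 of the 9 at an unadjusted p under 0.05 (background 5.65%). Both, Slc43a1 and Slc38a1, reached 1 FPKM in 1 group alone. Summed levels were 26.52 and 24.33 FPKM in MST1-deficient libraries and 30.95 and 34.86 FPKM in wild-type libraries. The separation rested on Slc43a1: without it the sums were 26.52 and 24.33 FPKM in MST1-deficient libraries and 27.02 and 24.86 FPKM in wild-type libraries, which overlap.

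Slc43a1, which encodes the facilitative transporter LAT3 for leucine and other large neutral amino acids, had the lowest p of all members. Its single listed transcript of 2363 bases had 0 and 0 FPKM in MST1-deficient libraries and 3.93 and 10.0 FPKM in wild-type libraries. The wild-type values rest on 69.77 and 165.1 estimated counts. Neither MST1-deficient library listed the transcript and both wild-type libraries did, which makes it at least 39.0-fold lower against a floor of 3 counts per library. The adjusted p was 0.351 with edgeR and 3.05e-05 with DESeq2, and over all 12 alternatives it lay between 3.05e-05 and 0.981. The gene lies on chromosome 2 at 84838855 to 84863586 (GRCm38.p6) and overlaps D930003E18Rik, and the strand of the reads is not given in the sources used here. Longer annotated transcripts exist, up to 3927 bases in GENCODE vM21, so the value is not that of the whole gene.

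The promoter of Slc43a1 is shown because MST1 acts upstream of the TEAD transcription factors, whose DNA motif is CATTCC. The window runs from 250 bases before to 50 bases after 1 RefSeq transcript start, at chr2:84840073-84840372 on the plus strand of GRCm38.p6. That start lies inside the span of the gene, downstream of its first base at 84838855, so the gene has at least 1 other start, whose window is not shown. Capitals mark the motif, which reads on the minus strand.
Slc43a1 promoter: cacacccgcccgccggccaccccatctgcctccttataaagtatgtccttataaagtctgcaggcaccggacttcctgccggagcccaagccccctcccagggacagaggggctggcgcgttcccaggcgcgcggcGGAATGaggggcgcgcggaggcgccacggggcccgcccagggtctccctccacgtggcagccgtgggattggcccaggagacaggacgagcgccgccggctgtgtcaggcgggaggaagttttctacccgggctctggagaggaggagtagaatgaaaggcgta
Of 32851 RefSeq promoter windows of this length, 14.7% held CATTCC on either strand. Among 125 windows of the 89 members matched to this table, 12% did. A match is a string of letters and is not evidence of binding.

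Slc38a1 and Slc38a2, neutral amino acid transporters that carry glutamine into cells with sodium, had higher values in MST1-deficient libraries. Slc38a1 had 1.84 and 1.0 FPKM in MST1-deficient libraries and 0.3 and 0.55 FPKM in wild-type libraries, for a log2 fold change of 1.73 (SE 0.61, edgeR adjusted p 0.844). Slc38a2 had 3.72 and 1.92 FPKM (MST1-deficient) against 1.32 and 1.28 FPKM (wild type), a log2 fold change of 1.10 (SE 0.62, edgeR adjusted p 0.945). For both genes the groups did not overlap, and neither passed the threshold.

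Among the other amino acid carriers, Slc43a3 had the highest mean, with 5.61 and 7.79 FPKM in MST1-deficient libraries and 4.77 and 9.07 FPKM in wild-type libraries. It belongs here by family number, although it transports purine nucleobases. Slc38a9, the lysosomal arginine sensor that signals to mTORC1, had 5.27 and 1.55 FPKM (MST1-deficient) against 7.91 and 3.77 FPKM (wild type), and the groups overlapped. Slc36a4, a high-affinity amino acid transporter, had 3.69 and 3.72 FPKM in MST1-deficient libraries and 5.28 and 5.13 FPKM in wild-type libraries. Replicates of Slc36a4 were nearly equal and the groups did not overlap, with a log2 fold change of -0.42 (SE 0.27, edgeR adjusted p 0.992). The cystine carrier Slc7a11, which feeds glutathione synthesis, paired by replicate number rather than by genotype, with 1.84 and 3.56 FPKM in MST1-deficient libraries and 1.84 and 3.5 FPKM in wild-type libraries. Slc36a1, a lysosomal amino acid exporter, had 2.34 and 2.08 FPKM in MST1-deficient libraries and 2.97 and 0 FPKM in wild-type libraries.

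The amino acid sensing and mTORC1 pathway that these carriers serve was read from a list of 34 genes. Unannotated transcripts of 12 were listed, 9 were tested, and 0 passed the edgeR threshold. At an unadjusted p under 0.05 stood 0 higher (background 3.01%) and 2 lower genes (background 2.64%) of the 9, and the median log2 fold change was 0.01. The 2 were Gcn1, the partner of the amino acid starvation kinase GCN2, and Tfe3, a lysosomal transcription factor. Gcn1 had 0 and 0 FPKM in MST1-deficient libraries and 5.85 and 3.2 FPKM in wild-type libraries, with adjusted p of 0.175 by edgeR and 5.93e-09 by DESeq2, and it too met the filter through wild type alone. Tfe3 had 6.76 and 4.63 FPKM (MST1-deficient) against 17.63 and 10.55 FPKM (wild type), with adjusted p of 0.665 by edgeR.

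The metal carriers comprised 11 genes, of which 8 were tested, and their median log2 fold change over the 4 libraries was -0.50. Both MST1-deficient libraries stood below both wild-type libraries for 4 of the 8 (background 18.8%) and above both for 2 (background 14.0%). The filter on low values fixed the place of Slc30a10 among the 4, since it reached 1 FPKM in wild-type libraries alone. Summed levels were 15.94 and 39.31 FPKM in MST1-deficient libraries and 40.82 and 45.85 FPKM in wild-type libraries. MST1-deficient replicate 1 had the lowest sum of the 4. Without this library the median log2 fold change was -0.10, and without the other MST1-deficient library it was -2.33. The summed level of the 7 listed of 15 erythroid markers was 39.52 and 19.33 FPKM in MST1-deficient libraries and 48.97 and 55.35 FPKM in wild-type libraries. Of the 5 tested, 0 passed the edgeR threshold and 1, the spectrin gene Sptb, had an unadjusted p under 0.05. Sptb and Kel were below wild type in both MST1-deficient libraries, whereas Ank1 and Tal1 overlapped, Tal1 with a log2 fold change of 0.07. MST1-deficient replicate 2 had the lowest erythroid marker sum of the 4 libraries. Defining erythroid markers such as Klf1 and Hba-a1 were not listed, and the part of erythroid cells in the metal carrier values was not tested.

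Slc30a10, which exports manganese from cells, had 0.13 and 0.17 FPKM in MST1-deficient libraries and 1.33 and 1.44 FPKM in wild-type libraries. Behind these levels stood 5.78 and 9.5 estimated counts in MST1-deficient libraries and 67.69 and 68.0 in wild-type libraries. Replicates were close and the groups did not overlap, with a log2 fold change of -3.01 (SE 0.61). Slc30a10 reached 1 FPKM in wild-type libraries alone, so the filter on low values fixed this direction. The adjusted p was 0.446 with edgeR and 0.0425 with DESeq2, and over 13 alternatives it lay between 0.0425 and 0.998. The level was low in all libraries, and the gene (chromosome 1, 185454848 to 185468762) overlaps Gm2061, a gene model whose reads cannot be told apart here.

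The Slc30a10 promoter is shown for matches to TGCACNC or TGCGCNC, the core of metal response elements. Such elements are the sites of the metal-sensing transcription factor MTF1. The window lies at chr1:185454598-185454897 on the plus strand of GRCm38.p6, with the same bounds around the RefSeq start, and capitals mark 3 matches on either strand, of which the first pair overlap.
Slc30a10 promoter: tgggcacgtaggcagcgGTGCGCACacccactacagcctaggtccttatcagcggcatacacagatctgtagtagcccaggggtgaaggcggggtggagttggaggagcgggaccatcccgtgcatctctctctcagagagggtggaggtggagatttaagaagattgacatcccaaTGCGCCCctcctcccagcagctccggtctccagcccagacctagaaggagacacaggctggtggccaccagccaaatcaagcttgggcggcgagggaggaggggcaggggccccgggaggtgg
The core was present in 25.7% of all promoter windows and in 35.2% of the windows of members, so a match is common and is not evidence of binding.

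Slc40a1 encodes ferroportin, the only known cellular exporter of iron in mammals. Its summed level was 1.03 and 2.11 FPKM in MST1-deficient libraries and 4.65 and 5.88 FPKM in wild-type libraries. The groups did not overlap, with a log2 fold change of -1.67 (SE 0.58, edgeR adjusted p 0.834). Ferroportin mRNA carries an iron-responsive element in its 5′ untranslated region, a hairpin bound by iron regulatory proteins, which hold back its translation when iron is scarce. The element of the GENCODE vM21 transcript lies at chr1:45925464-45925493 on the minus strand, within 1 exon. It is shown because the carrier is regulated through it as well as through mRNA level. Whether the unannotated transcripts measured here hold the element is not known, because no exon positions are given for them. Capitals mark the loop pattern CAGTGN.
Slc40a1 iron-responsive element: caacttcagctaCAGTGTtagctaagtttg
The search asked, on the transcript strand, for a bulged C, 5 bases, that loop, and 5 bases that pair with the first 5 (G-U pairs allowed). It found the pattern in 0.628% of 141767 GENCODE transcripts.

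Another 3 metal carriers separated by library more than by genotype, all with MST1-deficient replicate 1 as the lowest value. Slc11a2, the iron importer DMT1, had 1.92 and 7.69 FPKM in MST1-deficient libraries and 10.15 and 9.37 FPKM in wild-type libraries. The zinc importer Slc39a11 had 1.83 and 8.92 FPKM (MST1-deficient) against 11.67 and 10.98 FPKM (wild type). Slc30a5, which loads zinc into the secretory pathway, had 0.5 and 11.9 FPKM (MST1-deficient) against 6.13 and 11.13 FPKM (wild type). For Slc11a2 and Slc39a11 both MST1-deficient values were below both wild-type values, with log2 fold changes of -0.78 (SE 0.72) and -0.91 (SE 0.86). For Slc30a5 the second MST1-deficient library was the highest of the 4.

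Other metal carriers had higher values in MST1-deficient libraries or no separation. The zinc carrier Slc39a13 had 2.5 and 2.11 FPKM in MST1-deficient libraries and 1.18 and 1.06 FPKM in wild-type libraries, for a log2 fold change of 0.98 (SE 0.50, edgeR adjusted p 0.943). The copper carrier family member Slc31a2 had 3.23 and 4.51 FPKM (MST1-deficient) against 1.44 and 2.9 FPKM (wild type). Both MST1-deficient values were the higher ones for these 2 genes. Slc11a1, the divalent metal carrier of phagosomes, had 4.01 and 1.4 FPKM (MST1-deficient) against 3.51 and 2.21 FPKM (wild type) and overlapped. From a list of 20 other genes of iron, zinc and copper handling, 7 were listed and 3 were tested, with 0 past the edgeR threshold, 0 at an unadjusted p under 0.05 and a median log2 fold change of -0.35. Among them the iron reductase Steap3 had 0 and 1.19 FPKM in MST1-deficient libraries and 6.31 and 13.42 FPKM in wild-type libraries, and Fbxl5, which targets iron regulatory protein 2 for degradation, had 3.98 and 6.53 FPKM (MST1-deficient) against 15.13 and 4.61 FPKM (wild type).

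**Figure D3:**
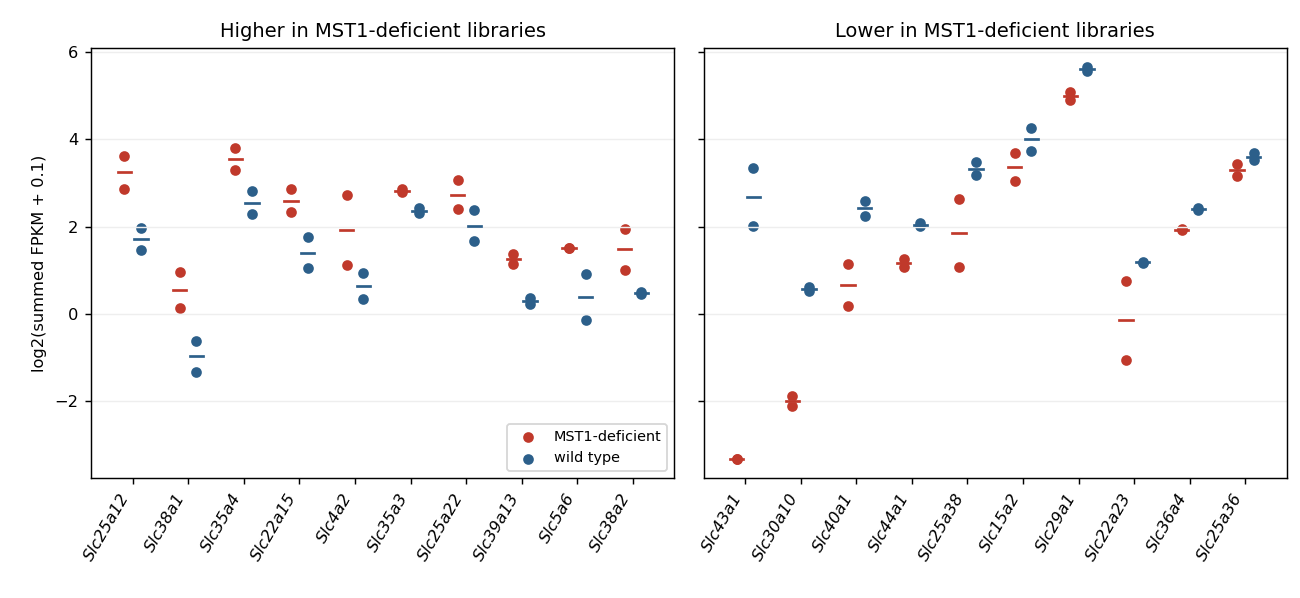
log2(summed FPKM + 0.1) of the 10 members with the smallest edgeR p in each direction among those whose groups do not overlap, with 1 point per library and bars at group means, MST1-deficient left of wild type. None passed an adjusted p of 0.05 with edgeR, and Slc43a1 sits at the floor of the scale in both MST1-deficient libraries.

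Mitochondrial carriers, all of family 25, comprised 16 genes, of which 10 were tested, with a median log2 fold change of 0.07. The most abundant were Slc25a28 (mitoferrin-2) and Slc25a37 (mitoferrin-1), which import iron into mitochondria, mitoferrin-1 mainly in erythroid cells. Slc25a28 had 17.71 and 13.72 FPKM in MST1-deficient libraries and 18.78 and 13.32 FPKM in wild-type libraries. Slc25a37 had 16.63 and 9.42 FPKM (MST1-deficient) against 13.25 and 11.27 FPKM (wild type). The groups overlapped for both.

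Slc25a12, the aspartate-glutamate carrier that takes part in the malate-aspartate shuttle, had the smallest p among members with higher values. Its level was 7.21 and 12.19 FPKM in MST1-deficient libraries and 3.81 and 2.64 FPKM in wild-type libraries. The lower MST1-deficient value was above both wild-type values, with a log2 fold change of 1.67 (SE 0.47, edgeR adjusted p 0.693). Slc25a22, a glutamate carrier, had 8.22 and 5.21 FPKM (MST1-deficient) against 5.06 and 3.07 FPKM (wild type), a log2 fold change of 0.77 (SE 0.35, edgeR adjusted p 0.929).

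Slc25a38, which supplies mitochondria with glycine for haem synthesis, had 6.13 and 2.02 FPKM in MST1-deficient libraries and 10.97 and 9.0 FPKM in wild-type libraries. The log2 fold change was -1.30 (SE 0.54, edgeR adjusted p 0.902), in the same direction as the sum of erythroid markers given above, whose part in it was not tested. The pyrimidine nucleotide carrier Slc25a36 had 10.68 and 8.8 FPKM (MST1-deficient) against 12.67 and 11.36 FPKM (wild type), a log2 fold change of -0.25 (SE 0.19). The other mitochondrial carriers tested, apart from the phosphate carrier Slc25a3, overlapped between groups. Slc25a3 had 1.32 and 2.03 FPKM in MST1-deficient libraries and 0.96 and 1.31 FPKM in wild-type libraries.

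Nucleoside and nucleotide sugar carriers comprised 12 genes, 9 of them tested, and had the largest summed level of any class. The sums were 112.2 and 114.4 FPKM in MST1-deficient libraries and 123.0 and 131.5 FPKM in wild-type libraries, whereas the median log2 fold change was 0.06. The 10 genes of family 35 ran the other way, with sums of 74.02 and 77.75 FPKM (MST1-deficient) against 67.61 and 72.47 FPKM (wild type). The lower class sums therefore lay outside family 35, with groups that separated for Slc29a1 and overlapped for Slc28a2. Slc29a1, the equilibrative nucleoside transporter ENT1, which takes up nucleosides for salvage, had the highest level of the class. It had 29.94 and 33.63 FPKM in MST1-deficient libraries and 47.49 and 49.95 FPKM in wild-type libraries. Replicates were close and the groups did not overlap, with a log2 fold change of -0.53 (SE 0.25, edgeR adjusted p 0.941). Slc28a2, a sodium-coupled nucleoside transporter, had 8.29 and 3.05 FPKM (MST1-deficient) against 7.9 and 9.13 FPKM (wild type), and the groups overlapped.

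The Golgi carriers of family 35 bring activated sugars and sulphate into the lumen for glycosylation. Slc35b2, which carries the sulphate donor PAPS, had 33.47 and 41.78 FPKM in MST1-deficient libraries and 31.83 and 41.51 FPKM in wild-type libraries. Its values paired by replicate number, with a log2 fold change of 0.11 (SE 0.33). Slc35a4 had 9.75 and 13.76 FPKM (MST1-deficient) against 6.92 and 4.77 FPKM (wild type), a log2 fold change of 1.11 (SE 0.40, edgeR adjusted p 0.866). Slc35a3, which carries UDP-N-acetylglucosamine, had 7.18 and 6.78 FPKM in MST1-deficient libraries and 5.25 and 4.85 FPKM in wild-type libraries. For both of these genes the groups did not overlap, and the log2 fold change of Slc35a3 was 0.53 (SE 0.23, edgeR adjusted p 0.912). Slc35c2, Slc35d1, Slc35b3 and Slc35e2 overlapped between groups.

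Carriers of carboxylates, peptides and organic ions comprised 16 genes, 12 of them tested, with a median log2 fold change of 0.11. Slc15a2, the proton-coupled peptide transporter PEPT2, had 12.68 and 8.09 FPKM in MST1-deficient libraries and 19.03 and 13.21 FPKM in wild-type libraries. The higher MST1-deficient value was just below the lower wild-type value, with a log2 fold change of -0.57 (SE 0.25, edgeR adjusted p 0.912). Slc17a9, which loads nucleotides into vesicles, had 5.4 and 7.0 FPKM (MST1-deficient) against 8.02 and 4.8 FPKM (wild type).

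Slc18a2, the vesicular monoamine transporter VMAT2 that stores histamine in basophils and mast cells, had 6.19 and 4.16 FPKM in MST1-deficient libraries and 6.29 and 5.78 FPKM in wild-type libraries. The sum of listed eosinophil, basophil and mast cell markers was 113.9 and 126.9 FPKM in MST1-deficient libraries and 151.9 and 191.5 FPKM in wild-type libraries, over 6 of 11 markers, with Cpa3, Mcpt8, Prg2, Epx and Fcer1a not listed. The part of such cells in the Slc18a2 level was not tested.

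Family 22, the organic cation and anion carriers, held 7 of these genes, 6 of them tested. Slc22a15 had 7.11 and 4.96 FPKM in MST1-deficient libraries and 3.28 and 1.96 FPKM in wild-type libraries, for a log2 fold change of 1.17 (SE 0.43, edgeR adjusted p 0.871). The organic cation transporter Slc22a3 had 6.24 and 3.52 FPKM (MST1-deficient) against 3.2 and 3.29 FPKM (wild type). Slc22a23, a carrier without an established substrate, ran the other way, with 1.59 and 0.38 FPKM (MST1-deficient) against 2.14 and 2.19 FPKM (wild type) and a log2 fold change of -1.17 (SE 0.66, edgeR adjusted p 0.947). The carnitine and ergothioneine carriers Slc22a5 and Slc22a4 overlapped, Slc22a5 at 2.51 and 2.95 FPKM (MST1-deficient) against 1.81 and 3.63 FPKM (wild type) and Slc22a4 at 3.82 and 6.14 FPKM (MST1-deficient) against 5.12 and 5.48 FPKM (wild type). Slc22a21 is a close relative of these genes, so the split of reads among them is uncertain.

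Ion exchangers and cotransporters were the largest class by gene number, with 18 genes, but 5 were tested. The endosomal sodium-proton exchanger Slc9a8 had 5.92 and 3.56 FPKM (MST1-deficient) against 6.14 and 4.18 FPKM (wild type), and the phosphate importer Slc20a1 had 6.14 and 3.16 FPKM (MST1-deficient) against 5.4 and 4.38 FPKM (wild type). In both the libraries numbered 1 were above those numbered 2, and the genotypes overlapped. The anion exchanger Slc4a2 did not overlap, with 6.55 and 2.06 FPKM in MST1-deficient libraries and 1.82 and 1.17 FPKM in wild-type libraries and a log2 fold change of 1.51 (SE 0.58, edgeR adjusted p 0.889). Slc8a1, a sodium-calcium exchanger, had 1.67 and 0 FPKM in MST1-deficient libraries and 1.68 and 1.13 FPKM in wild-type libraries.

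Sugar carriers comprised 9 genes by family number, 5 of them tested, with a median log2 fold change of -0.07. Slc50a1, the mammalian member of the SWEET family, had 8.64 and 11.29 FPKM in MST1-deficient libraries and 10.56 and 11.56 FPKM in wild-type libraries. Slc37a4, the glucose-6-phosphate carrier of the endoplasmic reticulum, had 10.04 and 4.92 FPKM (MST1-deficient) against 5.54 and 9.02 FPKM (wild type), a wide spread within both groups. No glucose transporter of family 2 reached the test: Slc2a9 and Slc2a8 were listed below 1 FPKM in every library. Slc5a6 sits in a sugar carrier family but transports biotin and pantothenate. It had 2.73 and 2.75 FPKM in MST1-deficient libraries and 0.81 and 1.79 FPKM in wild-type libraries, without overlap, a log2 fold change of 1.13 (SE 0.63, edgeR adjusted p 0.945).

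Vitamin, lipid and other carriers comprised 12 genes, of which 4 were tested. Slc44a1, a choline transporter that feeds membrane lipid synthesis, had 2.29 and 2.0 FPKM in MST1-deficient libraries and 4.13 and 3.92 FPKM in wild-type libraries. Replicates were close and the groups separate, with a log2 fold change of -0.85 (SE 0.31, edgeR adjusted p 0.871). The fatty acid transport protein Slc27a1 had 2.53 and 1.92 FPKM (MST1-deficient) against 1.37 and 1.48 FPKM (wild type), a log2 fold change of 0.69 (SE 0.47). Slc46a3, a lysosomal carrier, ranged from 0.86 to 4.59 FPKM within the MST1-deficient group, against 3.06 and 3.12 FPKM in wild-type libraries. The riboflavin transporter Slc52a2 had 0 and 2.78 FPKM in MST1-deficient libraries and 0 and 1.04 FPKM in wild-type libraries, and so was listed in both libraries numbered 2 alone. Of the 3 genes only named after a carrier, Slc7a6os had 7.92 and 7.5 FPKM in MST1-deficient libraries and 13.97 and 8.16 FPKM in wild-type libraries, and Slc4a1ap overlapped.

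**Figure D4:**
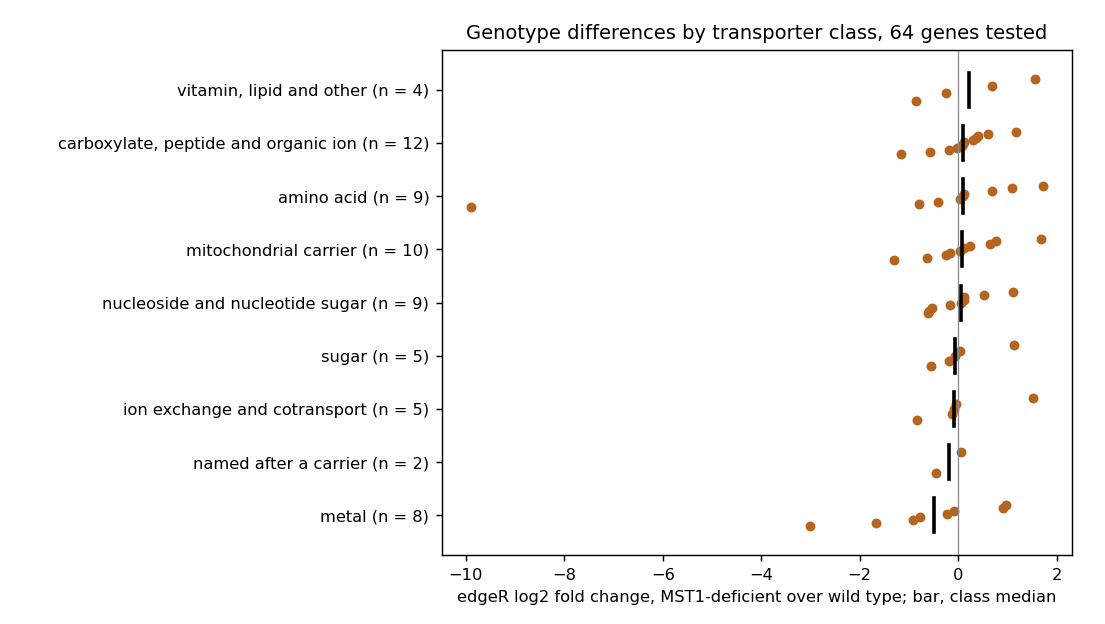
edgeR log2 fold change of MST1-deficient over wild type for the 64 members tested, by transporter class, with 1 point per gene and a bar at the class median. Class medians lie between -0.50 for metal carriers and 0.23 for vitamin, lipid and other carriers, and every class holds values on both sides of 0.

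With each library left out in turn, the median changed sign at least once in every class other than the metal carriers and the genes only named after a carrier.

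Some members were listed in both libraries of 1 group only. Slc16a12, Slc25a44 and Slc41a1 were listed in both MST1-deficient libraries and neither wild-type library, and Slc10a7 and Slc43a1 in both wild-type libraries alone. This is 2.70% and 1.80% of members, against 1.40% and 1.25% of all annotated genes. Apart from Slc43a1 these were near the limit of detection. Slc25a44, a branched-chain amino acid carrier of mitochondria, had 0.37 and 0.06 FPKM in MST1-deficient libraries, and Slc16a12, Slc41a1 and Slc10a7 stayed at or below 0.09 FPKM in each library.

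Isoforms were read from the 168 listed transcripts. A single transcript was listed for 71 members, 2 for 26 members, 3 for 12 members and 4 or more for 2 members, Slc38a9 and Slc35b3. Transcript length had a median of 3644 bases, from 722 bases for a Slc22a4 transcript to 18736 bases for Slc8a1. Of the 168 transcripts, 73 (43.5%), in 54 genes, were longer than every GENCODE vM21 transcript of their gene, and 47 were within 100 bases of a GENCODE length. The largest excess was 7180 bases in Slc16a6, a monocarboxylate carrier family gene, whose listed transcript of 11399 bases compares with 4219 bases for the longest in GENCODE. The files give no exon positions for these transcripts, so the source of the added length was not tested. The span of 46 members overlaps another RefSeq gene.

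Transcripts were tested singly by the same edgeR fit over 4661 transcripts, 82 of them from members. No transcript of a member passed the threshold (background 0.0%), and the lowest adjusted p of a member was 0.398. At an unadjusted p under 0.05 stood 4 transcripts (background 5.26%), 1 higher (background 2.27%) and 3 lower (background 2.98%) in MST1-deficient libraries. All 3 lower ones met the filter through the wild-type libraries alone, so the filter on low values fixed their direction. Leaving out MST1-deficient replicate 1 gave 13 in place of the 4, and leaving out the other MST1-deficient library gave 9. Of the 82, 46 had a log2 fold change below 0 (background 50.6%), and DESeq2 called 2 (background 2.15%), those of Slc43a1 and Slc45a4. Both of these also met the filter through the wild-type libraries alone. Both MST1-deficient libraries stood above both wild-type libraries for 13 transcripts (background 13.7%) and below both for 18 (background 19.9%). Among the 82 transcripts, 5 met the filter through the wild-type libraries alone and 1 through the MST1-deficient libraries alone, which fixed their side.

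Slc45a4, of a family of proton-coupled sugar carriers, had 2 listed transcripts. The one of 4721 bases was at 0 in both MST1-deficient libraries and at 1.38 and 1.15 FPKM in wild-type libraries, from 50.48 and 39.0 estimated counts, at least 14.3-fold lower against a floor of 3 counts per library. Its adjusted p was 0.398 with edgeR and 0.0344 with DESeq2, and between 0.0344 and 0.946 over 12 alternatives. It met the filter through the wild-type libraries alone, which fixed the direction of that call. The transcript made up 13.02% and 15.65% of the summed FPKM of the gene in wild-type libraries. The other transcript, of 4295 bases, had 8.56 and 3.79 FPKM in MST1-deficient libraries and 9.22 and 6.2 FPKM in wild-type libraries, and overlapped. The gene sum also overlapped, at 8.56 and 3.79 FPKM (MST1-deficient) against 10.6 and 7.35 FPKM (wild type).

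Shifts between transcripts of 1 gene were tested with the diffSplice function of limma in the 17 members with at least 2 transcripts past the filter. No member passed (background 1.21%, 11 of 909 genes), and 0 had an unadjusted p under 0.05 (background 9.68%). The lowest adjusted p of limma was 0.549, for Slc40a1. Of its 2 transcripts, the one of 3306 bases made up 48.5% and 0% of the summed FPKM in MST1-deficient libraries and 86.45% and 52.04% in wild-type libraries. That transcript had 0.5 and 0 FPKM in MST1-deficient libraries and 4.02 and 3.06 FPKM in wild-type libraries. The transcript of 3207 bases had 0.53 and 2.11 FPKM (MST1-deficient) against 0.63 and 2.82 FPKM (wild type), so that the separation of the ferroportin gene sum lay in the longer transcript. The longer transcript met the filter through the wild-type libraries alone, which fixed the direction of its difference. Which exons differ was not analysed here.

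In Slc35b3, a second Golgi carrier of PAPS and the member with the most transcripts (5), the transcript of 3933 bases made up 70.0% and 48.9% in MST1-deficient libraries and 35.4% and 28.4% in wild-type libraries. The gene sums overlapped between groups, at 5.3 and 3.52 FPKM (MST1-deficient) against 5.2 and 4.16 FPKM (wild type), and the limma adjusted p for its balance was 0.866. In Slc35e2 the transcript of 6020 bases made up 18.7% and 25.8% in MST1-deficient libraries and 52.1% and 37.6% in wild-type libraries, with a limma adjusted p of 0.898. This transcript, too, met the filter through the wild-type libraries alone. In Slc15a2 the 5485-base transcript made up 64.8% and 71.8% in MST1-deficient libraries and 80.8% and 69.0% in wild-type libraries, and in Slc35c2 the 6189-base transcript made up 55.8% and 48.5% in MST1-deficient libraries and 53.8% and 39.6% in wild-type libraries. The groups overlapped for both.

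Replicates could differ as much. Slc25a22 had a transcript of 3311 bases that made up 75.7% and 77.7% of the summed FPKM in MST1-deficient libraries, but 96.1% and 22.2% in the 2 wild-type libraries. Slc29a1 held the 2094-base and the 1999-base transcripts in similar shares in all libraries: the 2094-base transcript made up 65.4% and 57.6% in MST1-deficient libraries and 47.3% and 62.6% in wild-type libraries. Another Slc29a1 transcript, of 1927 bases, was listed in wild-type replicate 1 alone, at 5.51 FPKM. For Slc25a22 and Slc29a1 the limma adjusted p for balance was 0.973.

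**Figure D5:**
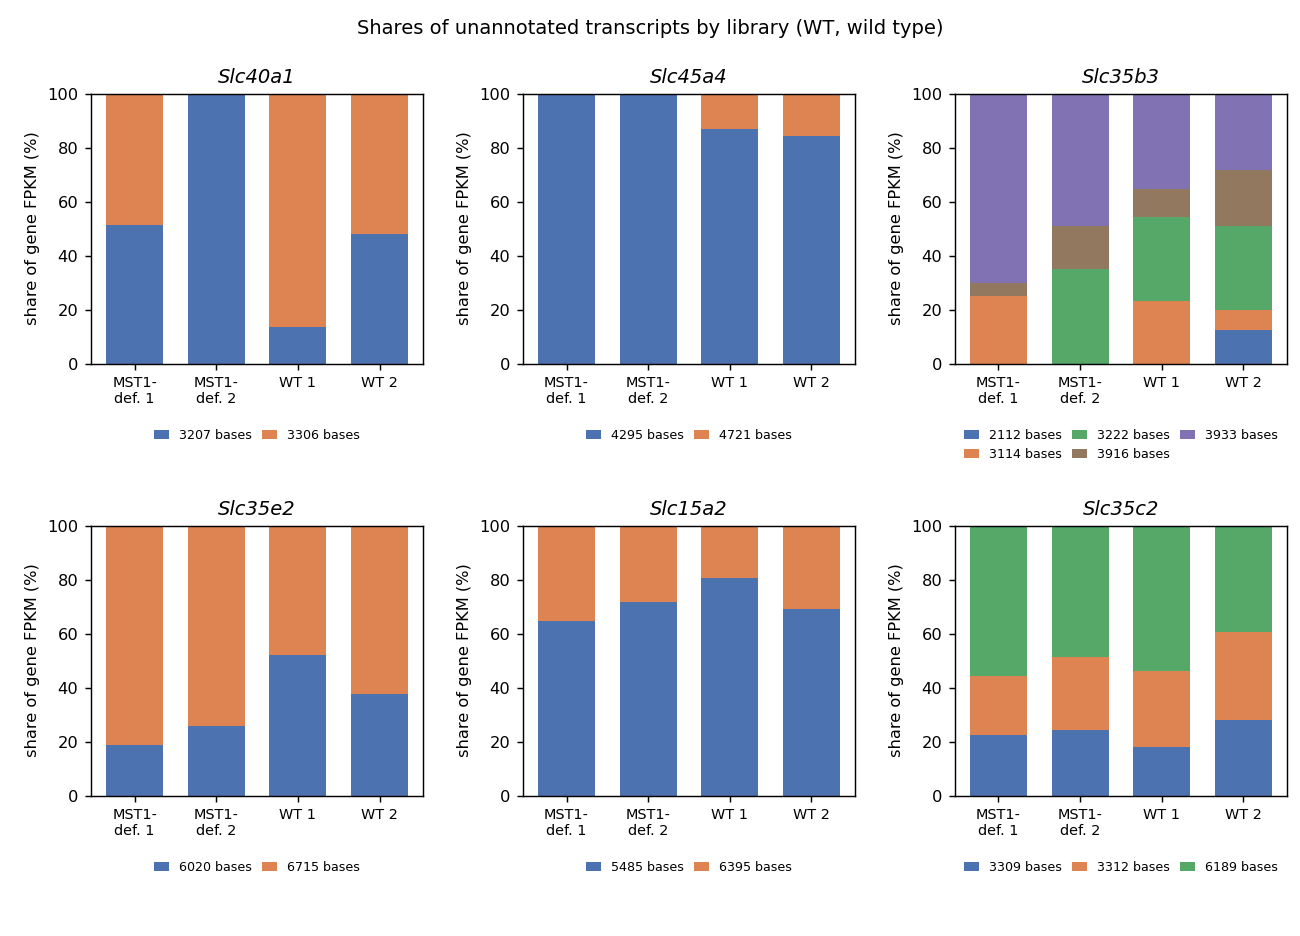
Share of the summed FPKM of each gene (%) held by each listed transcript, by library, MST1-deficient libraries left of wild type (WT), for the 6 members with the smallest diffSplice p; colours mark transcripts by length in bases. The 4721-base transcript of Slc45a4 is present in both wild-type libraries (13.02% and 15.65%) and absent from both MST1-deficient ones.

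Other membrane transporters and their chaperones were set beside the members, among them ABC transporters, P-type ATPases and carriers with Slco or Mfsd symbols. Their list held 139 genes. Of these, 44 were listed and 26 tested, with 0 past the edgeR threshold and a median log2 fold change of 0.17. At an unadjusted p under 0.05 stood 1 gene in each direction (background 3.01% higher and 2.64% lower). Mfsd13a, of the major facilitator superfamily, had 10.57 and 15.89 FPKM in MST1-deficient libraries and 1.39 and 3.84 FPKM in wild-type libraries. Abcg2, an ABC exporter of stem and progenitor cells, had 6.4 and 4.73 FPKM (MST1-deficient) against 11.6 and 9.86 FPKM (wild type). Neither passed the threshold, with edgeR adjusted p of 0.721 and 0.813.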

How the data were processed

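RNA of pooled granulocyte-monocyte progenitors was sequenced in 4 libraries, 2 per genotype, each from 10 mice. The authors deposited, per the file headers, an estimated count (expected count) and an FPKM value for each transcript outside the annotation. Build mm10 is named per the submitters' processing notes. The aligner, assembler, estimator, annotation and strand setting are not given in the sources used here. Gene-level files and loci without a gene number were not used for the members. Values were summed per NCBI gene number, a transcript missing from a library was set to 0, and 5051 of 5059 gene numbers matched a symbol in RefSeq.

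Summed counts were rounded and tested, 2-sided, with edgeR 4.0.16 (quasi-likelihood, TMM) under R 4.3.3, for features that reached an FPKM of 1 in 2 or more libraries. Benjamini-Hochberg adjustment ran over all features tested, with a threshold of 0.05. Transcript balance was compared on log2(FPKM + 0.5) by the diffSplice function (limma 3.58.1), which combines transcripts to 1 Simes p-value per gene. That test pools the spread over the transcripts of a gene. Scripts were tested on simulated data. Alternatives were DESeq2 1.42.0, RLE factors, implied library totals, other filters, limma with pseudocounts of 0.5, 0.1 and 1, a replicate block, and leaving out each library. Fold changes on the log2(FPKM + pseudocount) scale understate those of low values.

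A fold against a group at 0 is a lower bound, taken against 3 counts per library. Such floors cover counting error only, since PCR copies were not marked. Transporter classes follow family numbers. The members, classes and lists were chosen with earlier results of these data known. Genes were named by rule: the 3 highest of each class, the 10 per direction with the smallest p among members without overlap (5 for transcripts), the 8 with the smallest balance p, members at 0 in 1 group alone, the member with the most transcripts, and the 2 with the smallest p in each pathway list. Some genes that these rules or lists name are not reported here. Other members were named after their values were seen, to complete a class. Promoter sequences came from RefSeq (GRCm38.p6) and the iron-responsive element from GENCODE vM21, both on the build of mm10.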

Additional observations from a re-analysis of the deposited data

How the results depend on the processing

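No member passed the edgeR or limma threshold under any alternative run, for gene sums, transcripts or transcript balance, with each library left out included (0 to 0). DESeq2 called 2 gene sums (Slc43a1, with a fitted log2 fold change of -9.32 that is no bound, and Slc30a10, with -3.04) and 2 transcripts (Slc43a1 and Slc45a4). The 20 genes named for a difference were chosen among members whose groups did not overlap, which largely fixed their direction in advance. All kept it in every alternative that could be fitted, so this gives no support to the differences. Leaving out 1 library moved the fold of 8 of the 20 by over 1.5 times. Their log2 fold changes ranged from 1.08 to 2.10 for Slc25a12, 1.28 to 2.35 for Slc38a1, 0.69 to 2.03 for Slc4a2, 0.60 to 1.94 for Slc5a6, -10.42 to -9.004 for Slc43a1 (no bound), -2.48 to -1.15 for Slc40a1, -2.10 to -0.80 for Slc25a38 and -2.27 to -0.55 for Slc22a23. The median log2 fold change over the members, 0.03, was -0.10 with limma on log2(FPKM + 0.5) and -0.115 with limma on log2(FPKM + 0.1), and lay between -0.118 (without wild-type replicate 2) and 0.0518 with each library left out, so its sign is not settled. The cause was not tested. The replicate numbers are shared in the labels, but the deviations of same-numbered libraries correlated at 0.0746 over 3221 genes. A fit with the replicate block called 0 gene sums, 0 transcripts and 0 genes by balance, with a median of 0.04.

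Left-out libraries moved the number of members at an unadjusted p under 0.05 between 3 and 11 for gene sums and between 4 and 13 for transcripts. Class medians, examined this way after the data were seen, moved with single libraries: amino acid carriers from -0.42 to 0.60, and metal carriers from -2.33 to -0.10, below 0 in each case. The sums without Slc43a1 were also added after the data were seen. With 2 pools per group and at most 1079382 listed counts per library, low members such as Slc30a10 rest on few counts, and a p above the threshold does not show that groups were alike.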

Other observations

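Members listed in 1 library alone numbered 16, and 3 of them stood out by level. Slc12a7, a potassium-chloride cotransporter, reached 2.18 FPKM in wild-type replicate 2 and was listed nowhere else. Slc9a3r2, a scaffold protein named after a sodium-proton exchanger, reached 1.39 FPKM in MST1-deficient replicate 2 alone. Slc2a8, of the glucose transporter family, was listed at 0.93 FPKM in MST1-deficient replicate 1 alone.

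The RefSeq table holds 384 symbols of this form, and 111 were listed. Of the protein-coding genes of that table, 16 of 47 were listed in family 25 (mitochondrial carriers), 10 of 27 in family 35 (nucleotide sugar carriers) and 7 of 25 in family 22 (organic ion carriers). Amino acid carrier families varied: 1 of 19 was listed in family 6 (Slc6a12) and 1 of 15 in family 7 (Slc7a11). Listed genes were 3 of 4 in family 36, 3 of 3 in family 43 and 3 of 11 in family 38. Family 1 had 2 of 7 listed and family 66 had 1 of 2. Whether these shares differ beyond chance was not tested.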
